A study of Mus musculus with 7 samples.

Results

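Chromatin regions that had ATAC-seq peaks in WT proB and preB cells but no peak at those stages in Erg-deficient cells rescued by a rearranged heavy chain were examined in 7 ATAC-seq libraries. In ATAC-seq, fragments are released where chromatin is accessible and sequenced, and peaks mark places with a pileup of fragments above background. Overlapping peaks of the 7 deposited lists were merged into 145247 union regions on the mouse GRCm38 assembly. Regions were selected by a peak in WT proB and WT preB and none in Rescue proB or Rescue preB. Of 64233 regions with both WT peaks, 1933 met this definition and are called unrestored regions here. This was 3.01% of them, with a 95% Wilson interval of 2.88% to 3.14%. Another 58465 had a peak in both Rescue libraries and are called shared regions, and 3835 had a peak in 1 of the 2. With the genotypes exchanged, 3449 of 69828 regions with both Rescue peaks (4.94%) had no WT proB or preB peak, so peaks called in 1 genotype alone were found in both directions.

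WT cells carried Ergfl/fl, that is floxed Erg alleles without Cre, and were sampled as pre-proB, proB and preB cells. Erg KO pre-proB cells were Rag1CreT/+;Ergdelta/delta, in which a Cre transgene driven by Rag1 deletes Erg from the common lymphoid progenitor stage. Rescue cells were Rag1CreT/+;Ergdelta/delta;IgHVH10tar, with the same deletion and a knock-in, productively rearranged heavy chain allele under Igh control, and covered the 3 stages as well. WT therefore differed from Rescue by Cre, by Erg and by the IgHVH10tar allele at once, and these cannot be told apart. Erg KO had no proB or preB library here. The mice were on a C57BL/6J background, of both sexes and 6 to 18 weeks old, and which animals went into each library is not given in the sources used. Each of the 7 groups had 1 library and no replicate, so no difference was tested and no p-value is given. Intervals cover counting error only and treat regions as independent. Stages follow the sample titles. The source names of the Rescue libraries disagree with their titles (proB under the pre-proB title, preB under proB and pre-proB under preB), and that reading was tried as an alternative.

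The lists held 76465 to 105649 peaks, with a background of 3.49 to 4.60 fragments and at least 10 to 12 fragments at the summit of every called peak. The promoters of Cd79a, Cd79b, Ebf1, Pax5, Vpreb1, Igll1, Cd22 and Blnk, 8 markers of the B lineage, all had peaks at every WT stage and at the proB and preB stages of Rescue, against 5 in Erg KO and 6 in Rescue pre-proB. Of 10 T-cell genes, promoters of 6 had a peak in WT proB and 3 in WT preB, beside 6 in Rescue proB and 4 in Rescue preB. The Y chromosome held 32 to 41 peaks in every library.

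Erg is an ETS family transcription factor of stem cells and early lymphoid cells. Progress from the pre-proB stage to the proB and preB stages depends on Ebf1 and Pax5, the factors that set and hold B-cell identity, and on a rearranged heavy chain, which pairs with the surrogate light chain to form the pre-B receptor. Enhancers opened along this path carry recognition sequences of such factors: ETS proteins read GGAA cores, E proteins such as E2A read E-boxes, and Lef1 and its TCF relatives read CTTTG runs.

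The sequences of 8 unrestored regions are shown because 6 of them are among the unrestored regions that ranked highest in both WT lists and the other two lie by genes of the B-cell lists described further on. They were read from GRCm38, plus strand, as 200 bases about the WT proB summit. Capitals mark exact matches on either strand to 4 patterns: AGGAAGT (ETS), TCCCNNGGG (EBF1), CACCTG (E-box) and TCAAAG (TCF/LEF). Regions were ranked by the lower of their percentile ranks in the WT proB and WT preB lists, with 1 kept per nearest coding gene. The first 6 printed are the highest-ranked of these that held a match, after leaving out the chromosome whose sequence was not used here. Of the 11 searched, 8 held a match, 5 of them the E-box, 3 the TCF/LEF pattern, 3 the EBF1 pattern and 1 the ETS pattern. In the same order, these patterns were in 19.7%, 12.7%, 8.06% and 16.0% of all 64233 regions with WT proB and preB peaks. The 11 are too few to read a share from. The regions near Lef1 and Vav3 are those of the B-cell lists. Vav3, with a lower rank of 33.0, was printed although the Cxcr4 (47.8) and Sox4 (42.1) regions of these lists ranked higher. Each is named after the coding gene with the nearest start.
Tmem132e, chr11:82410525-82410724: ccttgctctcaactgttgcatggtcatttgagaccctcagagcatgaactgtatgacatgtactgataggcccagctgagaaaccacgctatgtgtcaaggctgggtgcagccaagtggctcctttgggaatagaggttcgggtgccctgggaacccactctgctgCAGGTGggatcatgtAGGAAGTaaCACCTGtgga
Ccl1, chr11:82252412-82252611: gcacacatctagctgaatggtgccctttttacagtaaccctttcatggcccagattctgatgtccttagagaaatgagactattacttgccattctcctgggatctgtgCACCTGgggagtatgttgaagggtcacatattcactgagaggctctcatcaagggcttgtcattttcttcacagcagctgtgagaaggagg
Rdh10, chr1:16297741-16297940: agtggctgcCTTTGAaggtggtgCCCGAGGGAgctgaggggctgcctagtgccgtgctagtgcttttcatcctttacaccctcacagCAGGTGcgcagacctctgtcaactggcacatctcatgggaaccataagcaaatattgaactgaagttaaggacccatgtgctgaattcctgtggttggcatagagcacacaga
Mical3, chr6:121067781-121067980: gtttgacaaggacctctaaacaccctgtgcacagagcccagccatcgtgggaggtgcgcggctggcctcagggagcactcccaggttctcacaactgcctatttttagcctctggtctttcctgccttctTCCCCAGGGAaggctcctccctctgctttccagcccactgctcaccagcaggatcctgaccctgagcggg
Dnah17, chr11:118162334-118162533: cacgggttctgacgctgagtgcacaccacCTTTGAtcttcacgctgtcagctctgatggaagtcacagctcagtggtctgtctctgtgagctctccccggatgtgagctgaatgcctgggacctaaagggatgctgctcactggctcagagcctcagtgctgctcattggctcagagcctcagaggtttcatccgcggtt
Dclre1b, chr3:103803616-103803815: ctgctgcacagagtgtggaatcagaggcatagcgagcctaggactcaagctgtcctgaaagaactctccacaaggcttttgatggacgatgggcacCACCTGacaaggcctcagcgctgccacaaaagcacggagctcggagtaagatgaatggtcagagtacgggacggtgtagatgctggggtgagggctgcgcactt
Lef1, chr3:130937029-130937228: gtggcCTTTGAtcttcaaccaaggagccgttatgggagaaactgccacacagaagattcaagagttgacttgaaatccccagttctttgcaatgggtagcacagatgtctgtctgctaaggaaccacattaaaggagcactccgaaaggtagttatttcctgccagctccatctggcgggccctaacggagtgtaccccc
Vav3, chr3:109236989-109237188: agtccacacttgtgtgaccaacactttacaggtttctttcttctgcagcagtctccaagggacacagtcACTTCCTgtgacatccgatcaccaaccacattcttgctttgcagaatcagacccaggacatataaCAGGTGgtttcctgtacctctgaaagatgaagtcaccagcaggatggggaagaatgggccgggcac

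Most unrestored regions were weak in WT. Their median −log10 q was 11.4 in WT proB, with quartiles of 6.18 and 33.0, and 6.93 in WT preB, with quartiles of 4.79 and 9.26. Shared regions had medians of 54.6 and 44.4. In both lists the unrestored share fell with peak strength. By WT proB rank it was 13% in the weakest 10% of peaks and 0.142% in the strongest, and by WT preB rank 16.3% and 0.0132%. Unrestored regions also ranked higher in WT proB than in WT preB more often, in 75.6% against 63.4% of shared regions. These scores come from lists that the selection used and describe the selection only. The lowest −log10 q of an unrestored region was 2.01 in WT proB and 1.75 in WT preB. Just outside the definition, 1396 regions had a Rescue proB peak alone, with a median of 6.35 and a minimum of 1.86, and 2439 had a Rescue preB peak alone, with a median of 7.15 and a minimum of 2.02. The nearest Rescue proB or preB peak lay a median of 4.08 kb from an unrestored region, and within 500 bp of 181 of them (9.36%).

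**Figure D1:**
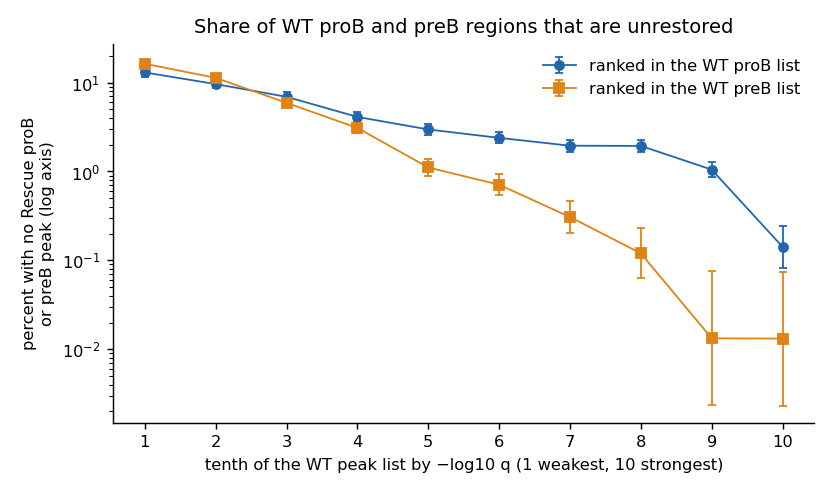
Percent of regions with WT proB and preB peaks that had no Rescue proB or preB peak (vertical log axis), by 10% steps of the WT proB list (circles) or WT preB list (squares) ranked by −log10 q, with 95% Wilson intervals. The share falls from 13% to 0.142% along the WT proB list and from 16.3% to 0.0132% along the WT preB list.

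Because a weak peak can be missed at another depth, tall regions were set apart. A region was called tall when its WT summit pileups, scaled to the background of each Rescue library, were at least 2 times the lowest pileup called there. Tall regions numbered 49870, of which 478 (0.958%) were unrestored. These 478 were 24.7% of all unrestored regions. The results that follow are for all unrestored regions, with tall regions given beside them only where stated.

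Unrestored regions had few peaks in pre-proB cells, 3 libraries that the selection did not use. WT pre-proB had a peak in 543 of 1933 (28.1%, interval 26.1% to 30.1%), Erg KO pre-proB in 382 (19.8%, 18% to 21.6%) and Rescue pre-proB in 412 (21.3%, 19.5% to 23.2%). Shared regions had one in 83.7%, 82.5% and 83.2%. Among regions whose −log10 q in both WT lists lay between the quartiles of the unrestored ones, the shares were 19.4%, 21.4% and 23.7% of 608 unrestored regions against 69.6%, 74.0% and 75.5% of 5052 shared regions. No pre-proB library had a peak at 1255 unrestored regions (64.9%), against 12.9% of shared regions. At these 1255 no WT peak was called before the proB stage. Of all 10788 regions with no pre-proB peak, 1255 were unrestored and 7543 shared. The rest had a Rescue proB or a Rescue preB peak but not both. The lack of pre-proB peaks was therefore not particular to unrestored regions.

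Among the 478 tall unrestored regions, which were chosen for high WT pileups and no Rescue proB or preB peak, WT pre-proB had a peak in 174 (36.4%, interval 32.2% to 40.8%), Erg KO in 60 (12.6%, 9.88% to 15.8%) and Rescue in 66 (13.8%, 11% to 17.2%). Tall shared regions had peaks in 87.3%, 85% and 85.7%. Of the 174 with a WT pre-proB peak, 114 (65.5%) had none in either Erg-deficient pre-proB library, against 3.36% of the tall shared regions with a WT pre-proB peak. These shares describe 1 library per genotype, and regions are not replicates of a genotype. Among the score-limited regions above, WT pre-proB had the lowest of the 3 shares. The order of WT and Rescue also turned with the reading of the labels. With Rescue stages taken from the source names, the library then read as Rescue pre-proB had a peak in 53.1% of 878 tall unrestored regions, above 19.5% for WT, while Erg KO had one in 3.30%. Over all 3183 regions unrestored by that reading the shares were 52.2%, 10.7% and 4.56%.

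Regions with a peak at all 3 WT stages and no peak in any of the 4 Erg-deficient libraries numbered 202, or 0.397% of the 50888 regions with all 3 WT peaks. The converse, all 4 Erg-deficient peaks and no WT peak, was found at 174 of 54938 regions (0.317%). By pre-proB pattern, 10.5% of the 1929 regions with a pre-proB peak in WT alone were unrestored, 11.6% of the 10788 with no pre-proB peak and 0.548% of the 47819 with a peak in all 3. Another 262 unrestored regions had a peak in all 3 pre-proB libraries and in neither Rescue proB nor preB.

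**Figure D2:**
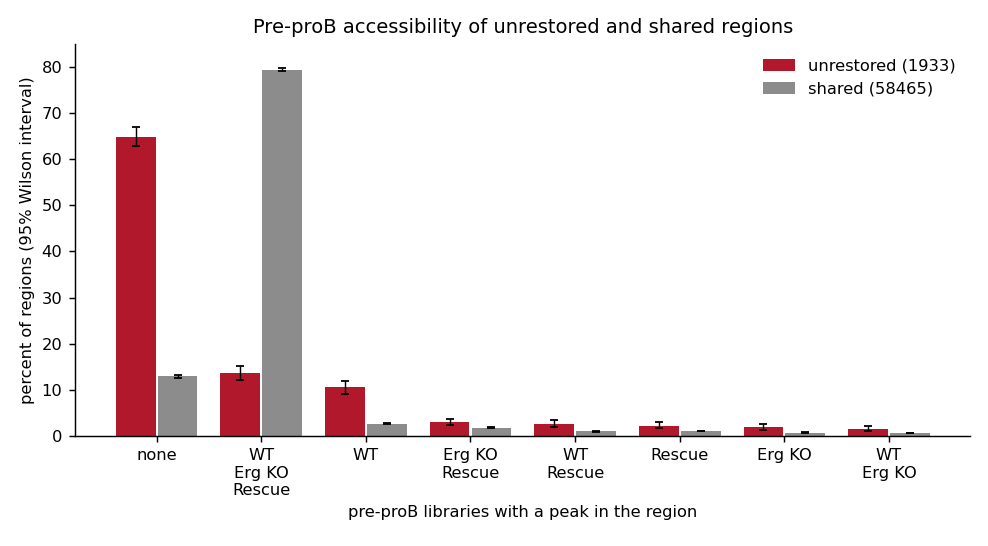
Percent of the 1933 unrestored and 58465 shared regions (vertical axis, bars, 95% Wilson intervals) with each combination of peaks in the WT, Erg KO and Rescue pre-proB libraries (horizontal axis). No pre-proB peak is the commonest state of unrestored regions (64.9%) and a peak in all 3 that of shared regions (79.4%), and a peak in WT alone is found in 10.5% and 2.66%.

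The unrestored region with the highest lower rank in the 2 WT lists lay in intron 1 of Tmem132e, a transmembrane protein gene, at chr11:82410038-82411214. Across the 3 WT stages its −log10 q was 23.9 (pre-proB), 498 (proB) and 281 (preB), from summit pileups of 40, 341 and 209 fragments, and no peak was called in Erg KO pre-proB or in the 3 Rescue libraries. The same 3 WT libraries, and none of the 4 Erg-deficient ones, had peaks at 4 more of the 12 highest-ranked regions. At chr18:47168915-47170523, inside the annotated span of Commd10, a gene of endosomal sorting, −log10 q was 17.2, 247 and 411 from WT pre-proB to WT preB. In intron 1 of Zmat4, a zinc finger gene, at chr8:23678737-23679824, it was 20.9, 243 and 87.6. In intron 1 of Mical3, an enzyme that acts on actin, at chr6:121067420-121068352, it was 8.07, 75.7 and 102. The region nearest the start of Dnah17 and inside the span of Cyth1, a regulator of ARF GTPases, at chr11:118161756-118162773, had 20, 490 and 77.9. Peaks at these 5 regions were thus called from the pre-proB stage in WT and in neither Erg KO nor Rescue pre-proB, with the WT pre-proB value lowest at Mical3. Their absence from Rescue proB and Rescue preB is part of the selection, as it is for every unrestored region. A higher WT proB value than any of these, 865, was at the promoter of Lamb3, a laminin chain gene (chr1:193303047-193304498), with 26.9 in WT pre-proB, 43.2 in WT preB and no peak in the other 4 libraries, and this region was picked after its values were seen.

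The other 7 had peaks in WT proB and WT preB alone. Inside the annotated span of Ccl1, a chemokine gene, at chr11:82251618-82252921, −log10 q was 152 in WT proB and 106 in WT preB. In intron 11 of Stau2, an RNA-binding protein gene, at chr1:16297341-16298192, with Rdh10 the nearest start at 192 kb, it was 115 and 96.1. In intron 3 of Gnaz, a G protein subunit gene, at chr10:75007117-75008581, it was 270 and 94.7. The region in exon 4 of Dclre1b, a nuclease that protects telomeres, at chr3:103803460-103804092, had 69.4 and 65.9. Intergenic regions nearest Klf7 (chr1:63987230-63988298), Irx6 (chr8:92540251-92541232) and Xylt1 (chr7:117098938-117099525) had 141, 91.6 and 53.4 in WT proB and 64.5, 60.6 and 76.6 in WT preB. All 12 were tall as defined above.

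**Figure D3:**
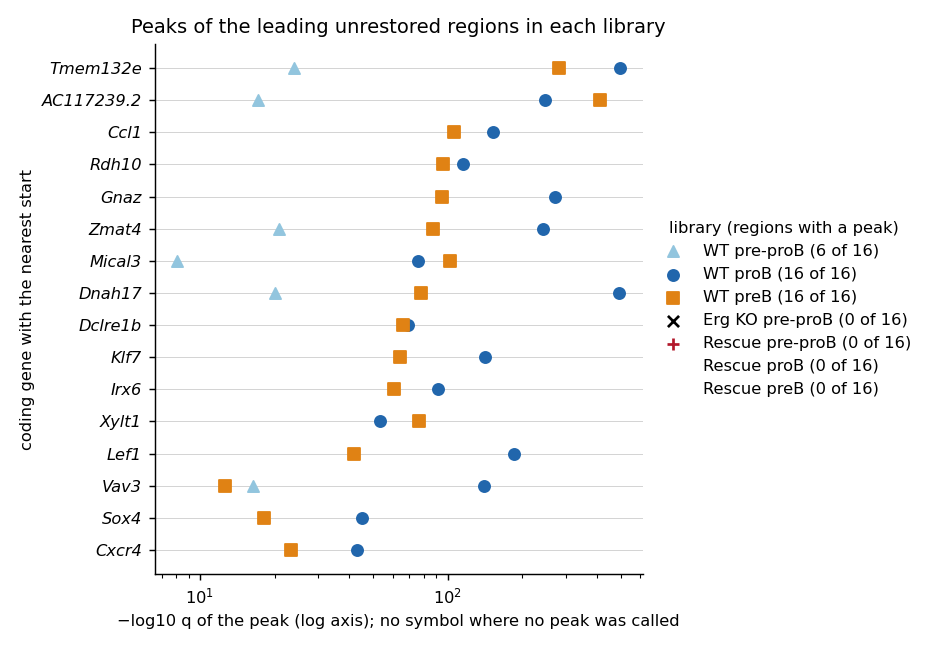
−log10 q of the peak in each library (horizontal log axis, 1 symbol per library) for the 12 highest-ranked unrestored regions and, below them, the 4 highest-ranked of the genes on the B-cell lists. WT proB and preB symbols are in every row by selection, and WT pre-proB symbols in 6 of 16. No Erg-deficient library has a symbol, which for Rescue proB and preB is also by selection.

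Unrestored regions were mostly scattered. With gaps of up to 50 kb joined, 1442 of 1933 (74.6%) stood alone, and 10 runs held 4 or more. The run with the most unrestored regions was at Tmem132e, chr11:82399735-82450008, where all 8 regions with WT proB and preB peaks in 50.3 kb were unrestored. WT pre-proB had 5 peaks in this run, WT proB 11 and WT preB 8, Erg KO and Rescue pre-proB had 4 each, and Rescue proB and preB had 0. Apart from the highest-ranked region, one in the same intron at chr11:82421659-82422638 had −log10 q of 26.9, 339 and 89.0 in the 3 WT libraries and no peak in the other 4. The region at chr11:82422868-82423390 had 13.7, 26.8 and 25.2 in WT, and also 13.8 in Erg KO and 21.4 in Rescue pre-proB. Of the 8 unrestored regions, 3 had a WT pre-proB peak, 1 an Erg KO and 1 a Rescue pre-proB peak. The other Erg KO and Rescue pre-proB peaks of the run lay outside the unrestored regions. The strongest of these, about 1.48 kb into the run, had −log10 q of 77.9 in WT, 89.9 in Erg KO and 126 in Rescue pre-proB.

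**Figure D4:**
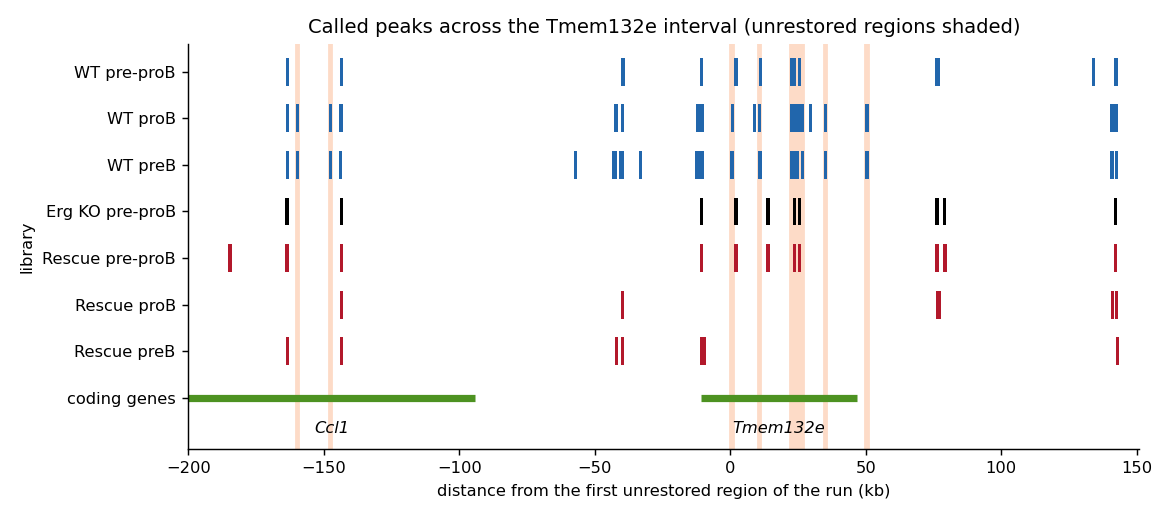
Called peaks in each library (rows) against distance in kb from the first unrestored region of the Tmem132e run, with unrestored regions shaded and coding genes drawn below. The 8 unrestored regions of the run hold WT proB and preB peaks and no Rescue proB or preB peak, while shared regions lie on both sides.

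The run with the next most, at chr18:47138192-47180642, held 7 unrestored regions among 8 with WT proB and preB peaks, and the remaining region had a peak in Rescue preB but not Rescue proB. Runs of 4 in which every WT proB and preB region was unrestored lay near Lmo3 (chr6:138421928-138471704), which encodes a LIM-only factor, and near Cabp7 (chr11:4746487-4783576), which encodes a calcium-binding protein. At Lmo3 no other library had a peak. The 4 on the Y chromosome, nearest Gm21860, were among 24 Y regions in all, a chromosome rich in repeated sequence where read placement is uncertain. On the autosomes 3.03% of regions were unrestored.

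By nearest coding start, Xylt1, which starts proteoglycan chains, had the most unrestored regions, 10 of its 42 with WT proB and preB peaks. They lay 64.5 to 437 kb from its start. None of the 10 had a pre-proB peak in any genotype, and their −log10 q ran from 2.53 to 68.1 in WT proB and from 3.48 to 76.6 in WT preB. Sox9, a transcription factor, had 8 of 21, at 50.6 to 764 kb from its start, and Tmem132e 8 of 13. Zmat4 had 7 of 12, the taste receptor gene Tas2r134 7 of 16, at 61.9 to 129 kb, and AC117239.2, on chromosome 18, 7 of 9, at 26.1 to 67.6 kb. These shares, 23.8% at Xylt1 to 77.8% at AC117239.2, stand beside 3.01% over all regions and describe genes that were picked for their counts.

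Genes were next grouped by role, with each region given to the nearest coding start. Of the 18 genes of the Erg, Ebf1 and Pax5 network, 5 had unrestored regions, 11 of 229 regions in all (4.80%, interval 2.70% to 8.40%), an interval that holds the 3.01% of all regions. Lef1, which encodes a factor of early B and T cells, held 6 of these 11. Its 25 regions comprised 6 unrestored, 16 shared and 3 with 1 Rescue peak. The highest-ranked, at chr3:130936367-130937440, lay 173 kb from the Lef1 start in intron 1 of the neighbouring gene 2010110G14Rik, with −log10 q of 185 in WT proB and 42.0 in WT preB. Another in that intron, at chr3:130930190-130930974, had 134 and 15.3. In Lef1 intron 3 lay chr3:131137145-131137842 with 22.9 and 18.2, chr3:131175781-131176693 with 30.9 and 13.5, and chr3:131159317-131159898 with 6.86 and 10.1. The sixth, at chr3:131033895-131034223, was intergenic with 4.24 and 15.3. Only the region at chr3:131159317 had pre-proB peaks, of 5.26 in WT and 8.74 in Rescue. Of the 6, 4 were tall. Both regions in 2010110G14Rik and the one at chr3:131137145 also lay within 1000 bp of an annotated transcript start, though none was nearer than 24.3 kb to the coding start of Lef1, where both Rescue libraries had a peak.

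The other network genes had weak unrestored regions, none of them tall. Pax5 had 1 of 23, in its intron 5 at chr4:44673819-44674224, with −log10 q of 9.03 in WT proB and 3.48 in WT preB. Cd79b, a signalling chain of the B-cell receptor, had 1 of 8, in exon 24 of the neighbouring Scn4a at chr11:106319741-106320149, with 13 and 4.79. Myc, a growth regulator, had 2 of 28, in introns of Pvt1, the stronger at chr15:62139202-62139582 with 14.7 and 6.93. Myb, a factor of progenitor growth, had 1 of 11, in its exon 9 at chr10:21146154-21146647, with 13 and 4.12 and a Rescue pre-proB peak of 2.92. Promoters of all 18 network genes had peaks in Rescue proB and Rescue preB, and the 11 unrestored regions lay 4.98 kb (Cd79b) to 341 kb (Myc) from the coding start to which each was assigned.

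The pre-B receptor signalling list had 10 unrestored regions of 280 (3.57%, interval 1.95% to 6.45%). The strongest belonged to Vav3, a signalling protein downstream of antigen receptors, at chr3:109236837-109237425, with −log10 q of 16.3, 140 and 12.6 in WT pre-proB, proB and preB. It had no peak in Erg KO or Rescue pre-proB, nor, by selection, in Rescue proB or preB. Vav2, of the same family, had a weak one in intron 1 (chr2:27417823-27418203, 8.29 in WT proB and 7.69 in WT preB). Of the kinase PI3K and its adaptor, Pik3ap1 had 2 (the higher-ranked at chr19:41393493-41393893, 15.5 and 4.79), Pik3r1 1 (chr13:101796939-101797620, 45.2 and 4.79) and Pik3cd 1, in exon 18 of Clstn1 (chr4:149647450-149648782, 46.3 and 2.87). The Pik3cd region also had pre-proB peaks of 19.1 in WT, 8.99 in Erg KO and 10.2 in Rescue. Single regions lay at Fyn, a Src family kinase, in intron 2 (chr10:39430319-39430754, 57.0 and 4.79), at the phospholipase gene Plcg2 (chr8:117493823-117494335, 8.29 and 4.79) and at Rasgrp3, an activator of Ras (chr17:75406470-75406721, 4.87 and 5.48). Several of these values sit at a WT preB −log10 q of 4.79, near the lower quartile of unrestored regions.

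B-lineage transcription factors had 17 unrestored regions of 618 (2.75%, interval 1.72% to 4.36%). Beside Lef1 and Pax5, Foxp1 had 3 of 74, the highest-ranked at chr6:99566910-99567633 with −log10 q of 36.3 in WT proB and 7.69 in WT preB. Sox4, needed for early B cells, had 2 of 40, and the stronger, at chr13:28671257-28672121, was tall with 45.2 and 18.2. Foxo1 had 1 of 45, in intron 1 (chr3:52335437-52336359, 21 and 4.79), and Runx1 1 of 47, in intron 2 (chr16:92706338-92706903, 38.4 and 6.19). Bcl11a had 1 of 42 (chr11:24256961-24257421, 16.4 and 4.79), and Id3, an inhibitor of E proteins, 1 of 9 (chr4:136105904-136106241, 8.29 and 8.47). The ETS family had 1 of 223 (0.448%, interval 0.0792% to 2.50%), and its interval lay below 3.01%, in 1 of 15 lists read without adjustment. The region belonged to Ets1 (chr9:32816283-32817246, 73.2 and 6.93). IL-7 receptor and STAT5 genes, which carry the main growth signal of proB cells, had 0 of 104 (upper bound 3.56%).

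Cell cycle genes had 3 of 144 (2.08%), namely both of Myc and 1 at Mycn (chr12:12846640-12847301, −log10 q of 58.2 in WT proB and 3.48 in WT preB). Survival genes had 2 of 96 (2.08%), at Bcl2l11, which encodes the death activator Bim (chr2:128306709-128307133, 35.2 and 4.79, with 3.06 in Erg KO pre-proB), and at Bcl2a1d (chr9:88756093-88756444, 22.9 and 8.47), 1 of several near-identical copies. Surface and homing genes had 6 of 225 (2.67%). The strongest was at Cxcr4, the receptor that holds B progenitors in marrow, at chr1:128692218-128692756, 99.9 kb from the start, with 42.9 and 23.2. The others were at S1pr1 (chr3:115711311-115711707, 13.8 and 8.47), Cd83 (chr13:44104421-44104781, 12.2 and 7.69), Ccr7 (chr11:99143614-99144169, 12.2 and 4.79), Cr2 (chr1:195162932-195163299, 7.57 and 4.79) and Cd55 (chr1:130502626-130502923, 6.86 and 7.69). Recombination and light chain genes had 1 of 31, at Dntt, which adds bases at heavy chain joins (chr19:41019026-41019765, 21.9 and 4.79). In all of these lists the interval held 3.01%.

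Lists for other cell types also had intervals that held 3.01%. T-cell genes had 2 of 28 (7.14%, interval 1.98% to 22.6%), at Cd4 and Bcl11b. Innate lymphoid genes had 2 of 70 (2.86%, 0.787% to 9.83%), at Nfil3 and Rora, and plasmacytoid dendritic cell genes 4 of 143 (2.80%, 1.09% to 6.97%), at Tcf4 and Runx2. Stem and progenitor genes had 2 of 59 (3.39%, 0.935% to 11.5%), at Meis1 and Lmo2. Myeloid genes had 0 of 35 (upper bound 9.89%) and erythroid genes 0 of 15 (upper bound 20.4%). The Cd4 region, in intron 1, had −log10 q of 4.61, 143 and 4.12 in WT pre-proB, proB and preB. It had no peak in Erg KO or Rescue pre-proB, nor, by selection, in Rescue proB or preB.

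At the loci that the alleles alter or that recombine, the unrestored shares had intervals that held the 3.01% of all regions. Erg itself (chr16:95359169-95586593) had 26 regions with WT proB and preB peaks, of which 0 were unrestored (upper bound 12.9%) and 23 shared. Rag1 had 0 of 4 and Rag2 0 of 2, too few to read a share from. The heavy chain locus Igh (chr12:113254830-116010093), which differs between WT and Rescue by the knock-in allele and by rearrangement, had 1 of 108 (0.926%, interval 0.164% to 5.06%), at chr12:113891321-113891669, with −log10 q of 19.1 in WT proB and 13.5 in WT preB. The light chain locus Igk (chr6:67555497-70726966) had 3 of 173 (1.73%, interval 0.591% to 4.97%), at chr6:70160453-70160771 (5.51 and 6.19), chr6:70287146-70287640 (3.65 and 28.4) and chr6:70578061-70578483 (13 and 13.5). None of these 4 had a peak in a pre-proB library.

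Unrestored regions lay away from promoters. Within 1000 bp of any annotated transcript start lay 139 of 1933 (7.19%, interval 6.12% to 8.43%) against 28.1% of shared regions, and 7.95% against 31.3% of tall regions. At starts of coding transcripts the shares were 3.57% and 23.0%. Part of this gap went with pre-proB accessibility, since among regions without any pre-proB peak the shares at any start were 7.09% of unrestored and 9.05% of shared regions, with overlapping intervals. The summit lay in an intron in 52.2% and between genes in 35.1% of unrestored regions. Their median distance to a coding start was 27.6 kb, against 14.1 kb for shared regions, and their median width 433 bp against 892 bp. Both were measured on merged regions, which in shared regions also take in Rescue proB and preB peaks. Without a pre-proB peak the median distances were 30.3 and 29.4 kb and the median widths 408 and 605 bp. GC content of the 200-base window was similar, with a median of 49.0% against 51.5%, and repeats took a mean of 19.8% against 12.5% of the window.

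Exact matches to 13 short patterns were counted within these windows. Of these, the TCF/LEF pattern TCAAAG was more frequent in unrestored than in shared regions in every stratum below, and so was the E-box CACCTG in the same strata. The TCF/LEF pattern was in 361 of 1933 unrestored regions (18.7%, interval 17.0% to 20.5%), in 16.4% of regions short of 1 Rescue peak and in 12.3% of shared regions. Among tall regions the shares were 25.7% (22.0% to 29.8%), 19.9% (17.5% to 22.5%) and 12%. By pre-proB class, it was in 25.3% of tall unrestored against 15.4% of tall shared regions that had no pre-proB peak. Without the height limit it was in 19.2% against 15% with no pre-proB peak, in 17.6% against 11.6% with all 3, and in 20.8% (15.8% to 26.9%) against 16% (14.3% to 17.9%) with WT pre-proB alone, where the intervals overlapped. The order also held in score-limited regions, with 17.6% (14.8% to 20.8%) against 13.7% (12.8% to 14.7%). In the exchanged set, with peaks in both Rescue libraries and in neither WT proB nor preB, the share was 12.5%. Over all 64233 regions with WT proB and preB peaks, 12.7% held it. Both the Dnah17 and Lef1 windows printed above carry it.

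The E-box CACCTG was in 23.7% of unrestored regions (interval 21.9% to 25.7%) against 19.4% of shared regions, and in 27.2% against 19.6% of tall ones. Regions that lacked a Rescue proB or a Rescue preB peak, but not both, held it in 22.8% (21.5% to 24.2%). For the tall regions of that kind the interval was 24.3% to 29.9%, which held the 27.2% of tall unrestored regions. The higher share was therefore not particular to unrestored regions. Of the 202 regions with peaks at all 3 WT stages and in no Erg-deficient library, 34.7% held it (28.4% to 41.4%), beside 27.2% of shared regions with a pre-proB peak in WT alone. The intervals of these last values overlapped. Over all regions the share was 19.7%. The Tmem132e window carries 2 matches. The other E-box, CAGCTG, was in 18.9% of unrestored and 19.8% of shared regions, and in 27% and 20.4% of tall ones.

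The EBF1 pattern TCCCNNGGG was in 13.4% of unrestored regions (interval 12% to 15.0%) against 7.78% of shared regions, in 12.8% against 5.84% of score-limited ones and in 17.8% against 8.23% of tall ones. This difference followed pre-proB accessibility. Without a pre-proB peak the shares were 15.6% and 17.2%, and with all 3 pre-proB peaks 3.05% and 5.66%, so within these classes unrestored regions did not hold it more often. Over all regions it was in 8.06%. The ETS pattern AGGAAGT, a site type that Erg can read, was in 14.7% of unrestored regions (13.2% to 16.4%) against 16.1% of shared regions, and in 17.2% against 15.9% of tall ones, with intervals that overlapped in both cases. Over all regions it was in 16.0%. Of the 285 unrestored regions with it, 101 also held the longer GAGGAAGT that PU.1 prefers and that contains it. The octamer ATGCAAAT, read by Oct factors, was in 2.95% of unrestored and 2.64% of shared regions, with 2.71% over all regions. Its order differed between strata, with 4.39% and 2.68% of tall regions but 3.75% and 6.66% of regions without a pre-proB peak.

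**Figure D5:**
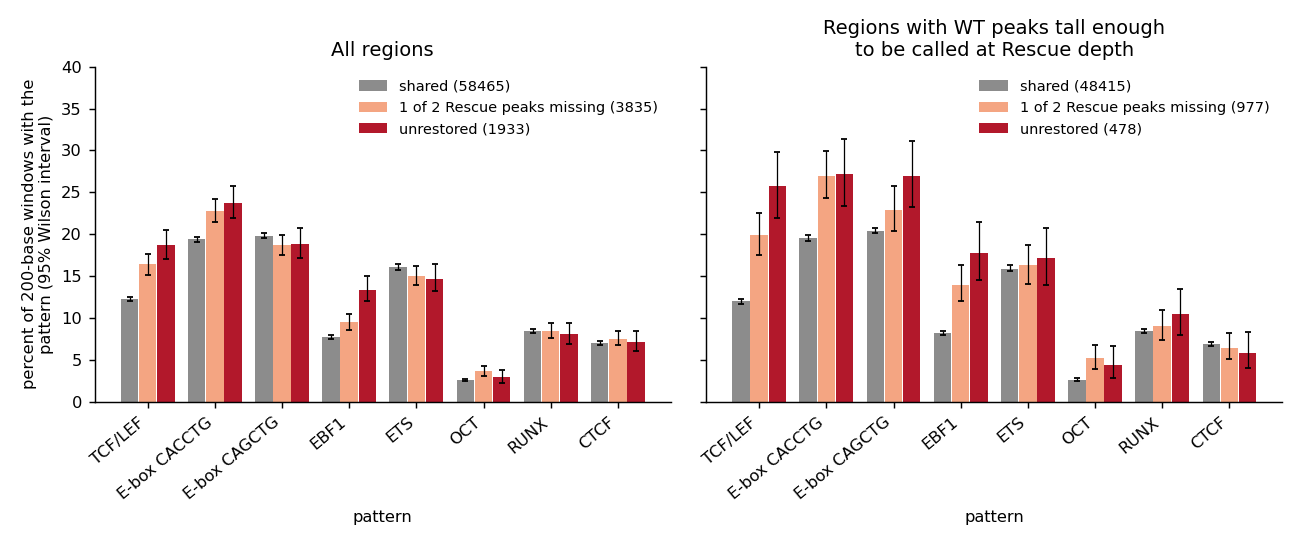
Percent of 200-base windows holding each pattern (vertical axis, bars, 95% Wilson intervals) in shared regions, regions short of 1 Rescue peak and unrestored regions, for all regions (left) and tall regions (right). The TCF/LEF bars rise from 12.3% to 16.4% and 18.7% on the left and from 12% to 19.9% and 25.7% on the right, while the ETS bars lie between 14.7% and 17.2%.

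Among the remaining patterns, PU.1 GAGGAAGT was less frequent in unrestored (5.23%, interval 4.32% to 6.31%) than in shared regions (7.0%), with 6.89% over all regions. In score-limited regions the shares were 6.41% (4.73% to 8.65%) and 7.03%, and without a pre-proB peak 4.86% and 5.87%, with overlapping intervals in both. TGTGGTT, read by RUNX factors, was in 8.07% of unrestored and 8.50% of shared regions, CTCF CCANNAGGG in 7.19% and 7.03%, IRF GAAANNGAA in 6.93% and 7.51%, AP-1 TGANTCA in 6.88% and 5.56%, AGATAA, read by the GATA family, in 8.07% and 6.63% and FOX GTAAACA in 2.85% and 2.66%. Over all regions these 6 were in 8.48%, 7.07%, 7.42%, 5.68%, 6.77% and 2.68%. The AP-1 and GATA intervals of all unrestored regions lay above those of shared regions, but in score-limited regions the shares were 6.74% and 6.65% for AP-1 and 7.40% and 7.15% for GATA. TCF/LEF and CACCTG were singled out after the 13 shares were seen. A match gives letters in a window and not a bound site.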

How the data were processed

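ATAC-seq peak lists of 7 libraries, 1 per group, were used. The study's methods state that libraries were amplified for 13 cycles and read as 75 bp pairs, that Bowtie2 aligned the reads to mm10 (GRCm38) and that MACS2 called the peaks. The processing notes of the submitters also name Picard and CASAVA 1.8.2. Versions and options of the aligner and caller were not given in the sources used here, and the methods name sonication where the labels name Tn5.

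The lists deposited by the authors hold 4 kinds of value per peak. The score column deposited by the authors is the whole-number part of 10 times −log10 q. The −log10 p and −log10 q columns were deposited by the authors as MACS2 wrote them. The fold column of the authors is the summit pileup over background, with 1 fragment added to each, and came in whole fragments (tolerance 0.05), from which pileups were recovered. Read depth is unknown from these files.

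Peaks sharing at least 1 base were merged on 21 chromosomes in Python 3 (pandas and numpy). A region took the largest −log10 q of its peaks in a library, and ranks are percentiles within a list. Genes, exons and starts came from GENCODE M21 basic, sequences from GRCm38.p6. Patterns were searched on both strands in 200 bases about the WT proB summit. Shares have 95% Wilson intervals. Overlap, nearest-start and pattern steps were tested on simulated data. Regions named are the 12 with the highest lower rank in the 2 WT lists, 1 per nearest coding gene, the 6 genes with the most unrestored regions, listed genes with an unrestored region, and those inside Erg, Igh, Igk, Rag1 and Rag2. The definition, gene lists and patterns were chosen with earlier results of these data known.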

Additional observations from a re-analysis of the deposited data

Results flagged for a closer look

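From the pre-proB to the proB stage, 99 unrestored regions (5.12%, interval 4.22% to 6.20%) moved in opposite directions in the 2 genotypes: a peak was gained in WT, and a peak present in Rescue pre-proB was absent from Rescue proB. They stand out because each direction rests on every library of its genotype, here 1 per stage, and the difference was not tested. The WT proB peak and the Rescue absence at proB are part of the definition. The observation is therefore a Rescue pre-proB peak together with no WT pre-proB peak. Of the 99, 56 also had an Erg KO pre-proB peak. Their median −log10 q was 5.94 in Rescue pre-proB and 7.57 in WT proB, below the medians of 80.8 and 54.6 that shared regions had in these libraries. Among shared regions 2.79% had a Rescue pre-proB peak and no WT pre-proB peak, but far fewer shared regions lacked a WT pre-proB peak. Of regions with no pre-proB peak in any genotype, 11.6% were unrestored. With an Erg KO pre-proB peak alone it was 7.24%, with a Rescue one alone 5.53% and with both but not WT 4.36%. Among regions without a WT pre-proB peak, a Rescue pre-proB peak thus went with a lower unrestored share.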

How the results depend on the processing

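The number of unrestored regions, 1933, rested on thresholds and on each of the 4 libraries. It was 1752 without those within 500 bp of a Rescue proB or preB peak, 1836 with peaks within 200 bp merged and 2446 with every list cut to the shortest, but 1019 with lists cut to 38232 peaks, 2995 by WT proB peaks with reciprocal overlap of 50%, 368 with WT peaks of −log10 q of at least 10, 478 by scaled pileup and 3183 with Rescue stages read from the source names, 1521 of which were among the 1933. Without WT proB it was 3913, without WT preB 14416, without Rescue proB 3329 and without Rescue preB 4372. As a share of regions with both WT peaks it was 2.94% with merged peaks, 4.08% with equal lists and 3.29% with lists cut to 38232 peaks. It was 4.97% by reciprocal overlap, 0.764% with −log10 q of at least 10, 0.958% by scaled pileup and 4.96% by source names, beside 3.01%. The fall to 1019 thus went with fewer regions rather than a lower share.

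In the order equal lists, lists cut to 38232 peaks, −log10 q of at least 10 and scaled pileup, a WT pre-proB peak was found in 19.1%, 11.9%, 39.4% and 36.4%, an Erg KO pre-proB peak in 13.3%, 9.91%, 13.3% and 12.6%, and a Rescue pre-proB peak in 12.5%, 8.64%, 14.1% and 13.8%. Reciprocal overlap gave 21.4% for WT, 19.3% for Erg KO and 19.8% for Rescue. By source names the library then read as Rescue pre-proB had a peak in 52.2%, above WT at 10.7%, so the order of WT and Rescue turned. Under every setting the shares of shared regions were higher. The promoter share was 14.8% with 2500 bp, against 35.5% of shared regions, and 8.42% with −log10 q of at least 10. In 400 bases the EBF1 pattern was in 17.8%, ETS in 21.1%, TCF/LEF in 29.7% and CACCTG in 37.4%, against 11.9%, 22.0%, 22.9% and 31.6% of shared regions. With −log10 q of at least 10 they were in 17.1%, 17.9%, 26.6% and 30.2%, against 8.27%, 15.9%, 12% and 19.7%, so the ETS share was then the higher one. TCF/LEF and CACCTG, whose alternatives were chosen after the data were seen, were in 25.7% and 27.2% by scaled pileup. Counting regions within 10 kb of a gene in place of the nearest start changed 10 of 15 list counts by more than 1.5 times, the Erg network from 11 of 229 regions to 6 of 163.

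No paired analysis was possible because each group had 1 library and no result came from a test. With weak peaks, no peak called does not show closed chromatin.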
